A study of Mus musculus with 6 samples.

Results

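The ectoderm covering the forelimb bud of wild-type mouse embryos was described at E10.5, in mid-gestation, from the gene expression values of 3 wild-type embryos alone. Genes were kept if they carried a symbol in the deposited table and stood at 1 FPKM or more in all 3 embryos. FPKM counts sequenced fragments per kilobase of transcript, scaled to library size, so it is a level per length and can therefore be set side by side between genes. The table lists 49452 genes, of which 20695 carry a symbol, and 10072 of these passed the rule. Among them were 10061 of the 20594 protein-coding genes with a symbol, a background of 48.9%. These 10061 are called expressed below.

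The series holds 6 embryos, of which 3 are wild type, and its other 3 libraries, from embryos lacking the transcription factor Sp8, enter no result here. The wild-type embryos were C57BL/6J, from crosses within the C57BL/6 inbred strain, with no allele or treatment added. Each library came from both forelimbs of 1 embryo, whose ectoderm was freed with 0.25% trypsin for 20 minutes on ice and peeled off with fine forceps. Polyadenylated RNA was sequenced. The preparation therefore pooled dorsal, ventral and distal ectoderm with its outer cell layer, and in such bulk RNA a smaller number of cells of a type and less RNA per cell cannot be told apart.

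As background, the limb bud at this stage is a core of mesenchyme under a thin ectoderm. Along the distal rim the ectoderm thickens into the apical ectodermal ridge, a signalling epithelium whose FGF ligands keep the underlying mesenchyme growing. Dorsal ectoderm makes Wnt7a and ventral ectoderm makes En1, and BMP signalling acts upstream of both En1 and the ridge. Trp63 encodes p63, the transcription factor on which stratified epithelia depend, and Epcam encodes a surface adhesion protein of epithelial cells.

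The 3 libraries were alike in depth and, among coding genes, in summed FPKM and overall order. From the steps between the lowest FPKM values of 3059 low genes, embryos 2 and 3 had 0.893 and 1.03 times the depth of embryo 1; total counts were not given per embryo. The log2 values of the embryos, across genes that are not independent of each other, correlated with Pearson r of 0.987 (embryos 1 and 2), 0.987 (1 and 3) and 0.990 (2 and 3). Summed FPKM over protein-coding genes was 285833, 292184 and 274362. Over all genes of the table it was 6837842, 12061445 and 1217656, of which 1 mitochondrial tRNA gene without a symbol, 75 nucleotides long, made up 93.5%, 96.1% and 61.9%. The median gene lay 0.04 above its own 3-embryo mean in embryo 1, 0.03 above in embryo 2 and 0.06 below in embryo 3 on the log2 scale. The median of mean FPKM over expressed coding genes was 9.22, 442 genes reached a mean of 100 FPKM and 17 reached 1000.

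All 5 limb ectoderm markers were expressed in every embryo, and their order was the same in each except for Fgf8 and Wnt7a. Values listed per gene are FPKM in embryos 1, 2 and 3, and errors are the SD over these embryos (n = 3). Trp63 (ENSMUSG00000022510; chromosome 16, 25683763 to 25892102, plus strand) stood at 124, 144 and 126 FPKM, a mean of 131 ± 11 and place 311 among expressed coding genes. Epcam (ENSMUSG00000045394; chromosome 17, 87635979 to 87651129, plus strand) followed at 106, 118 and 107 FPKM, a mean of 110.3 ± 6.39, and its highest embryo lay below the lowest embryo of Trp63.

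The ridge ligand and the dorsal ligand stood at equal mean levels. Fgf8 (ENSMUSG00000025219; chromosome 19, 45736798 to 45742915, minus strand) had 36, 31.3 and 30.2 FPKM, a mean of 32.5 ± 3.1. Wnt7a (ENSMUSG00000030093; chromosome 6, 91363981 to 91411363, minus strand) had 28.5, 37.4 and 31.6 FPKM, a mean of 32.5 ± 4.5, so the ranges of Fgf8 and Wnt7a overlapped, with Fgf8 the higher in embryo 1 and Wnt7a in embryos 2 and 3. En1 (ENSMUSG00000058665; chromosome 1, 120602418 to 120607992, plus strand), the ventral factor, was the lowest at 9.12, 12.3 and 12.2 FPKM, a mean of 11.2 ± 1.82, and its highest embryo lay below the lowest of the other markers. Sp8, the zinc finger factor of the ridge that the series removes in its other libraries, had 8.35, 11 and 13.5 FPKM here. It was lowest in embryo 1 and highest in embryo 3.

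Markers of other cell types differed among the embryos, and embryo 1 stood apart. Embryonic globins, made by primitive red cells, gave the widest gap: Hbb-y had 192, 14.7 and 4.46 FPKM, Hba-x 159, 14.7 and 4.33, and Hbb-bh1 62.7, 5.19 and 1.85. The adult-type alpha globins Hba-a1 and Hba-a2, near-identical copies whose reads may be split between them, had 5.31, 0.71 and 0.225 and 4.55, 0.222 and 0 FPKM. In all of these embryo 1 was the highest and embryo 3 the lowest. Of 13 erythroid list genes 3 were expressed, the summed FPKM over the whole list was 430, 36.8 and 11.8, and Gata1, the erythroid master regulator, stayed at or below 0.0137 FPKM.

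Limb mesenchyme markers were present in all 3 libraries, lowest in embryo 2. In all, 8 of 18 were expressed, and the summed FPKM over the list was 127, 80.8 and 109. Vim, an intermediate filament gene also used outside mesenchyme, had 38.4, 32.9 and 40.1 FPKM, and the growth factor receptor Pdgfra 23.8, 19.8 and 21.4, with embryo 1 above embryo 2 in both. Prrx1, a homeobox gene of limb mesenchyme, showed a wider range at 16.5, 3.92 and 9.93 FPKM, as did the forelimb factor Tbx5 at 6.28, 1.11 and 2.37. Fgf10, the mesenchymal ligand that signals to the ridge, was near the threshold at 1.06, 0.234 and 0.423 FPKM, and the collagen gene Col1a1 stayed under it at 0.604, 0.251 and 0.447. Of the 8 expressed mesenchyme markers, 6 were highest in embryo 1 and 6 lowest in embryo 2. Both counts were also 6 after median-of-ratios scaling. Among all expressed coding genes embryo 1 was highest in 46.2% and embryo 2 lowest in 24.2% on the deposited scale. After that scaling embryo 1 was highest in 34.8%.

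Other lineages gave little signal. Of 12 endothelial genes only Egfl7 was expressed, at 1.82, 2.54 and 2.84 FPKM, while Cdh5, the cadherin of endothelial junctions, was listed at 0 in every embryo. Of 11 macrophage genes only Cd68, a lysosomal protein also found outside macrophages, was expressed, at 2.02, 1.41 and 1.29 FPKM; the receptor Csf1r had 0.0955, 0 and 0.0617. Of 11 neural crest and Schwann precursor genes 3 passed the rule (Tfap2b, Erbb3 and Ngfr), but the crest-defining factor Sox10 had 0.102, 0.0208 and 0.00901 FPKM. Among 8 genes of migrating muscle precursors Eya1 alone passed, with Lbx1 at 0.0102, 0 and 0 FPKM. The part that RNA of other cells plays in the results below was not tested.

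**Figure D1:**
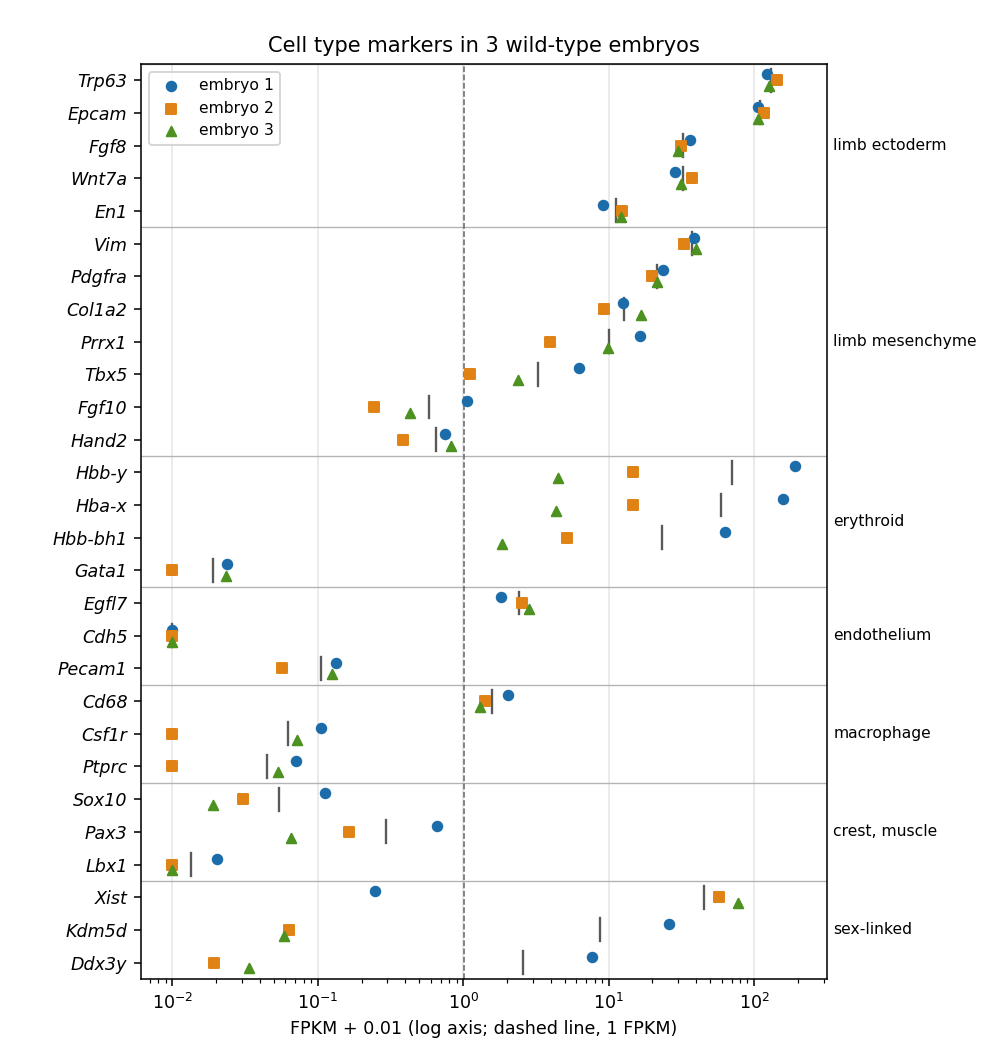
FPKM plus 0.01 of marker genes (log axis) in embryo 1 (circles), embryo 2 (squares) and embryo 3 (triangles), with a grey tick at the mean; the dashed line marks 1 FPKM. The 5 limb ectoderm markers lie close together in each row, whereas Hbb-y spans 4.46 to 192 FPKM and the sex-linked genes separate embryo 1 from embryos 2 and 3.

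Sex-linked transcripts also separated embryo 1 from the others. The Y-linked histone demethylase gene Kdm5d had 26.1, 0.0534 and 0.0484 FPKM, and the Y-linked helicase gene Ddx3y had 7.69, 0.00924 and 0.0236. Xist, the RNA that coats the inactive X chromosome and a gene without a symbol in the deposited table, had 0.237, 57.5 and 77.9 FPKM. The submitters' names for the 3 libraries begin with 4 for embryo 1 and with 5 for embryos 2 and 3, and what that number stands for is not given in the sources used here. Sex-linked expression, this leading number and the globin levels all set embryo 1 apart and cannot be told apart with 3 embryos.

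The promoter of Hbb-y, the highest of these globin genes, is shown because its transcript had the second largest ratio between embryos among expressed coding genes with a mean of 5 FPKM or more. The sequence holds 120 bases that end just before the first annotated transcript base in both RefSeq and GENCODE (GRCm38.p6), 5′ to 3′ on the gene's strand. Capitals mark CACCC, as found in many globin promoters, and further downstream CCAAT, from the box of that name.
Hbb-y: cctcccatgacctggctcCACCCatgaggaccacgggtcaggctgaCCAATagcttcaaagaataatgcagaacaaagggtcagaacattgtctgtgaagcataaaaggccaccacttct
It lies at chr7:103853217-103853336, minus strand and held 1 CACCC and 1 CCAAT, with both strands searched. Over all 32851 RefSeq promoter windows of 300 bases, from 250 before to 50 after a start, 57.5% held CACCC and 37.4% CCAAT.

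The promoters of 2 ectoderm markers are shown for their CG dinucleotides, a feature in which expressed and other coding genes differed. They were cut by the same rule to 120 bases, and here capitals mark each CG.
Epcam: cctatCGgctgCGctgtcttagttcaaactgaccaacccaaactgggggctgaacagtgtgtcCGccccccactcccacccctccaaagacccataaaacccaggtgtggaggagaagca
Wnt7a: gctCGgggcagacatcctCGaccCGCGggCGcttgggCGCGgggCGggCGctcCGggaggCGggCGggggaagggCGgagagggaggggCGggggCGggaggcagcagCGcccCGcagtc
Epcam is at chr17:87635859-87635978, plus strand, and Wnt7a at chr6:91411364-91411483, minus strand. These stretches held 3 and 17 CG, and the 300-base windows 11 and 42. Among 10079 windows matched to 7859 of the 10054 symbols of expressed coding genes, the median was 21 CG per 300 bases. Among 9153 windows of coding genes that were not expressed it was 5, and over all windows 7. The 1000 genes of highest mean FPKM had a median of 24. GGGCGG, the GC box letters, was in 65.5% of windows of expressed genes, 29.2% of those not expressed and 35.7% of all. TATAAA, the TATA box letters, ran the other way, with 6.45% of expressed and 18.4% of other coding windows, beside 13.6% of all. CCAAT hardly separated them, at 38.6% and 37.2%. These are letter matches on either strand and do not show binding.

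The highest coding genes encoded mitochondrial proteins, ribosomal and RNA-binding proteins and general housekeeping proteins, together with 1 growth factor. Lars2, the mitochondrial leucyl-tRNA synthetase, led at 5695, 4809.5 and 5092 FPKM, a mean of 5199 ± 452. The mitochondrially encoded ATP synthase subunit gene ATP8 came next at 3340.0, 3747 and 3808 FPKM, though it overlaps ATP6 on the mitochondrial genome and how shared reads were assigned is not given in the sources used here. Npm1, a nucleolar protein of ribosome assembly, had 2695, 2676 and 2606 FPKM. In FPKM, the ranges of Lars2 and ATP8, and of ATP8 and Npm1, did not overlap. The place of ATP8 depended on the quantity used, as described below.

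Igf2, an imprinted growth factor of the embryo, was sixth with 1779, 2442 and 2416 FPKM, a mean of 2212 ± 376, and was lowest in embryo 1. Other places of the first 20 were held by COX1, ND1 and CYTB of the respiratory chain, Atp5b of the ATP synthase, Pabpc1, Hnrnpa2b1 and Serbp1, which bind RNA, the chaperone Hsp90ab1, the kinase gene Ulk4, the ribosomal protein genes Rpl41 and Rpl31, the elongation factor Eef1a1, and Actb and Gapdh. Their means ran down to 913 FPKM for Serbp1. Actb, cytoplasmic actin, had 1119, 1124 and 1126 FPKM, a spread of 1123 ± 3.89. Only 3 of the 20 were separated in range from the gene ranked next below, so most of the order within the first 20 was not resolved by 3 embryos. The 10 highest nuclear genes made up 6.99%, 7.01% and 7.22% of summed nuclear coding FPKM, and the 100 highest 24.7%, 25.4% and 25.1%.

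The rank of several genes depended on the quantity used. The authors' deposited table also gives a control mean that it does not define. It was read here as the wild-type mean on a normalized-count scale, because Sp8 is higher in it than in the table's other group mean, and was divided by the length of the longest transcript. The values that follow rest on that reading. Over 10037 genes this value and mean FPKM had a Spearman correlation of 0.917, a description across genes with no test. Their first 20 genes shared 10, their first 100 shared 70 and their first 1000 shared 777. FPKM stood over 4-fold above the authors' deposited table's mean per kilobase, relative to the median gene, in 307 genes (3.06%), and over 4-fold below it in 2. Ulk4 was the clearest case among the first 20, with an excess of 10.87 on the log2 scale. Its 1161, 1315 and 1036 FPKM faced a mean of 88.2 in the authors' deposited table, against 54983 there for Actb. On chromosome 9, Ulk4 (120955351 to 121277197, minus strand) overlaps Ctnnb1 (120929216 to 120960507, plus strand). How reads of the overlap were assigned is not given in the sources used here. ATP8 had a log2 excess of 2.92, against 0.42 for Npm1 and -0.22 for COX1. By the mean per kilobase of the authors' deposited table ATP8 stands below both. For the 5 ectoderm markers the log2 excess lay between -0.31 (En1) and 0.22 (Wnt7a).

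Of 408 transcriptional regulators on the lists, 182 (44.6%) were expressed, beside 48.9% of all coding genes with a symbol. The highest was Ctnnb1, which encodes beta-catenin, the adhesion protein and Wnt coactivator that does not itself bind DNA, at 457, 471 and 428 FPKM. Among the listed regulators, Trp63 was the highest DNA-binding factor. Lef1, a nuclear partner of beta-catenin, followed at 122, 112 and 95 FPKM, and Tcf12, a bHLH factor, at 119, 104 and 102. The ranges of Lef1 and Tcf12 overlapped, and both lay below Trp63 in every embryo. The place of Lef1 rests on FPKM: against the mean per kilobase of the authors' deposited table its log2 excess was 3.09, and by that mean it stands below Tcf12 (1.38) and Satb1 (1.89).

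Satb1, a chromatin organiser, stood at 77.8, 83.5 and 84.8 FPKM, clear of its neighbours on both sides. The ETS factor Gabpa (63.3, 63 and 65.2 FPKM), the SoxC gene Sox11 (64.8, 60.7 and 53.5), the homeobox gene Meis2 (64.2, 56.9 and 52) and the AP-2 gene Tfap2b (64.9, 50.7 and 53.8) came next. Each of these overlapped the next one named, so their order was not resolved. All 10 listed TCF/LEF genes and Wnt effectors were expressed, including Znrf3, a ligase that removes Wnt receptors, at 45.9, 51.3 and 45.2 FPKM, and Axin2, a feedback target of Wnt signalling, at 31.3, 26 and 25.1.

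Other regulators of epithelial identity stood below Trp63. Tfap2a, another AP-2 gene, had 33.8, 37.4 and 35.4 FPKM, the grainyhead factor Grhl3 34.5, 30.5 and 27.6 and Grhl2 22.2, 24 and 21. In all, 10 of 19 listed ectodermal and epithelial regulators were expressed, and 5 more reached 1 FPKM in only 1 or 2 embryos, among them Grhl1 at 1.35, 0.784 and 0.715 and Ovol1 at 1.12, 1.34 and 0.73. Of the Dlx and Msx homeobox genes 8 of 9 were expressed. Msx2, a BMP-responsive gene of the ridge, led at 47.3, 48.8 and 44.5 FPKM, a range above that of Dlx5 (18.5, 19.7 and 15) and Dlx3 (15.7, 16.7 and 18.5), which overlapped each other.

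Other families were represented by part of their members. Among 26 Sp and Klf genes 13 were expressed, led by Sp1 at 33.4, 36.1 and 33.9 FPKM, Klf3 at 32.1, 29.5 and 27.4 and Sp3 at 23.3, 23 and 23.5. Sp6 and Sp9, relatives of Sp8 known from the ridge, stayed below the threshold, Sp6 at most at 0.0766 FPKM and Sp9 at 0.775, 0.437 and 0.704. Emx2, a homeobox gene, had 17.7, 27.5 and 22.8 FPKM, lowest in embryo 1. Among Fox genes 13 of 41 were expressed, led by the cell cycle factor Foxm1 at 35.5, 32.9 and 32.2 FPKM and Foxn3 at 28.5, 34.6 and 34.2. Of 17 T-box genes 4 passed: Mga (41.9, 44.2 and 41.2 FPKM), Tbx3 (11.3, 10.6 and 9.05), Tbx15 (6.81, 1.04 and 2.03) and Tbx5. Tbx15 and Tbx5 were at least 2-fold higher in embryo 1 than in either other embryo, whereas Mga and Tbx3 were not.

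Hox genes split by cluster. Of 9 Hoxc genes 7 were expressed, against 1 of 11 Hoxa, 0 of 10 Hoxb and 0 of 9 Hoxd genes. Hoxc8 had 25.9, 30.2 and 30.1 FPKM, Hoxc6 11.3, 13.6 and 11.4 and Hoxc5 7.5, 6.27 and 3.57, and the summed FPKM of the Hoxc cluster was 54.8, 58.7 and 60.3. The sums of the other clusters were lower in every embryo, at 19.6, 6.13 and 9.98 for Hoxa, 4.34, 4.90 and 3.56 for Hoxb and 19.2, 3.69 and 8.92 for Hoxd. Another 6 Hoxa and 6 Hoxd genes reached 1 FPKM in 1 or 2 embryos only. In 5 of these Hoxa and 5 of these Hoxd genes only embryo 2 lay below 1 FPKM, so the selection itself made embryo 2 the lowest. For comparison, embryo 1 was highest in 46.2% and embryo 2 lowest in 24.2% of expressed coding genes. All 12 Hoxa and Hoxd genes so selected were highest in embryo 1 and lowest in embryo 2. Examples were Hoxa11 at 4.76, 0.951 and 1.76 and Hoxd13 at 4.36, 0.905 and 1.96 FPKM. That order is also the order of the mesenchyme markers Prrx1, Tbx5 and Fgf10, and the part of mesenchymal RNA in the Hox levels was not tested. The distal gene Hoxc13 had 1.92, 1.37 and 4.2 FPKM, highest in embryo 3.

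Of 192 listed ligands 76 (39.6%) were expressed, and the first 10 held growth factors, 1 BMP, 1 Wnt, 1 semaphorin and 1 FGF. Below Igf2 came Mdk, a heparin-binding growth factor, at 541, 526 and 512 FPKM. Its ranges were separate from Igf2 above and from the cytokine gene Mif (212, 223 and 178 FPKM) below. Pdgfa had 186, 205 and 183 FPKM, Ptn, the close relative of Mdk, 208, 172 and 165, and Pdgfc 81, 85.7 and 69. Mif, Pdgfa and Ptn overlapped in that order, and Pdgfc lay below them in every embryo.

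FGF ligands were a small group headed by the ridge members. Of 22 genes 7 were expressed. Fgf8 led, and Fgf9 at 13.3, 10.2 and 8.56 FPKM and Fgf4 at 8.9, 9.73 and 12.1 overlapped each other below it, with Fgf9 highest in embryo 1 and Fgf4 in embryo 3. Fgf17, the other FGF of the ridge, passed 1 FPKM in embryo 3 only (0.487, 0.792 and 1.48 FPKM). Fgf3 passed in embryo 2 only (0.969, 1.48 and 0.787), and Fgf10 and Fgf18 (1.6, 0.0662 and 0.456) in embryo 1 only. Among receptors Fgfr2, whose epithelial form binds Fgf10, was the highest of all 129 listed, at 129, 137 and 130.0 FPKM, a mean of 132 ± 4.66. Fgfr1, whose mesenchymal forms receive Fgf8, had 9.7, 4.8 and 7.09 FPKM, and Fgfr3 1.63, 1.02 and 1.29. The ranges of Fgfr2 and Fgfr1 were far apart in every embryo.

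Of 19 Wnt ligand genes 9 (47.4%) were expressed, near the 48.9% of all coding genes, with Wnt5a highest at 64.5, 66.8 and 62.8 FPKM, above Wnt7a and Wnt6 (24.1, 23 and 20.5) in every embryo. Wnt5a acts mainly outside beta-catenin signalling. Wnt3, on which formation of the ridge depends, had 10.9, 10.9 and 9.47 FPKM, and Wnt7b and Wnt4 had 13.2, 11.6 and 13.6 and 10.4, 10.2 and 10.8. Wnt10a reached 1 FPKM in embryo 3 only, at 0.845, 0.473 and 1.06 FPKM. The R-spondin gene Rspo2, a Wnt enhancer made by the ridge, had 14, 15.1 and 12.8 FPKM, the only 1 of 4 R-spondins to pass. Among Wnt receptors and coreceptors 16 of 20 (80%) were expressed, led by Fzd1 (46.2, 55.7 and 51.8 FPKM), Fzd7 (25.3, 27.3 and 22.7) and Lrp6 (23.5, 22.9 and 22.9).

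Bmp4 was the highest of 32 TGF-beta and BMP ligands, 9 of them expressed, at 132, 123 and 122 FPKM. Bmp7 had 32, 30.8 and 30.2 FPKM and Bmp2 6.44, 6.79 and 3.97, below Bmp4 in every embryo. The BMP type I receptor gene Bmpr1a stood second among receptors at 59.4, 59.3 and 53.9 FPKM, Tgfbr1 had 46, 52.1 and 44.9 and the activin type II receptor gene Acvr2b 32, 35.6 and 31.9. Bmpr1b lay just outside the rule at 1.43, 1.15 and 0.998 FPKM.

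Among 29 secreted antagonists 12 were expressed. The BMP-binding proteins Twsg1 (48.3, 47.5 and 43.2 FPKM) and Fstl1 (49.2, 43.7 and 42.8) overlapped at the top. The related inhibitors Sost (12.8, 14.8 and 18.1 FPKM) and Sostdc1 (14.4, 13.5 and 11.9) and the Wnt inhibitor Sfrp1 (12.6, 13.1 and 11.9) came below. Grem1, a BMP antagonist of limb mesenchyme, was uneven at 8.12, 1.32 and 2.41 FPKM, over 2-fold higher in embryo 1 than in the others. So were the mesenchyme markers Tbx5 and Meox2, the only 2 of 18 to do so at a mean of 1 FPKM or more. The mesenchyme markers Vim and Col1a2 (12.5, 9.25 and 16.7 FPKM) were highest in embryo 3. Dkk1, a Wnt inhibitor, had 2.51, 1.84 and 2.51 FPKM.

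For hedgehog signals the receptors were present without the ligands. None of 3 hedgehog ligand genes was expressed, and the highest of them was Shh at 0.495, 0.208 and 0.171 FPKM. Ptch1, a receptor and target gene of the pathway, had 40.8, 44.6 and 40.4 FPKM and Smo, its signal transducer, 41, 35 and 34.8. The coreceptor Gas1 had 27.4, 29.7 and 25 FPKM.

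Lists of guidance and contact signals and their receptors were expressed in shares from 42.9% (Notch ligands) to 100% (ephrins). The share of all coding genes with a symbol was 48.9%, and Eph receptors stood near it at 50%. All 8 ephrins passed, led by Efnb2 (29.1, 27.2 and 23.3 FPKM) and Efna5 (20.7, 25.2 and 21.8), with 7 of 14 Eph receptors, led by Epha4 (20.6, 16.8 and 15.6). Of the semaphorins, Slits and netrins 18 of 27 were expressed, with Sema3a at 39.5, 39.4 and 36 FPKM, and the receptors Neo1 (55.6, 52.7 and 52), Plxna1 (37.8, 37.8 and 39.1) and Nrp2 (31.2, 25.2 and 25.9) were among the 10 highest. Of Notch components, Jag2 had 9.03, 9.99 and 8.71 FPKM and Notch1 15.9, 22.4 and 14. Across all classes 74 of 129 receptors (57.4%) were expressed.

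**Figure D2:**
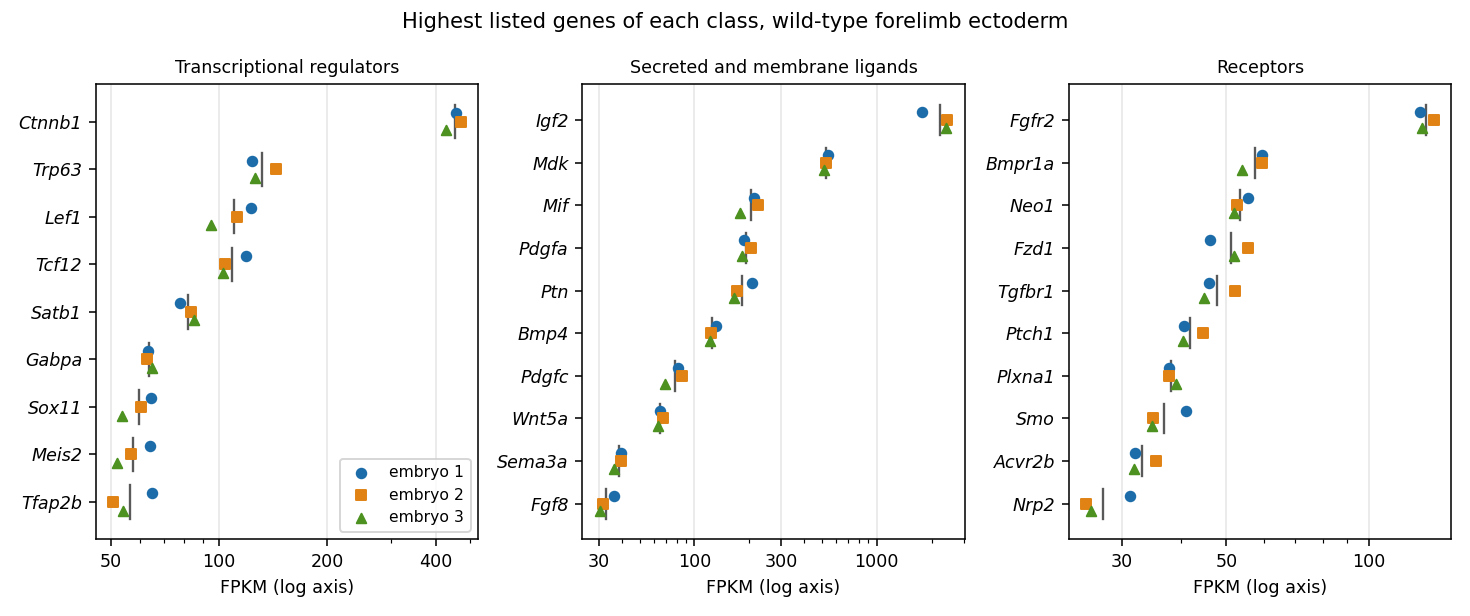
FPKM (log axis) of 9 of the 10 highest listed transcriptional regulators and of the 10 highest ligands and receptors in embryo 1 (circles), embryo 2 (squares) and embryo 3 (triangles), with a grey tick at the mean. Ctnnb1, Igf2 and Fgfr2 stand clear of the gene below them; 5 of 10 regulators, 6 of 10 ligands and 4 of 10 receptors were separated in range from the next gene.

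Keratins, the intermediate filament proteins of epithelia, were few. Of 52 keratin genes 10 (19.2%) were expressed, 3 of 25 type II and 7 of 27 type I, beside 48.9% of all coding genes. Krt5, the type II keratin of basal cells, led at 86.5, 73.4 and 81.4 FPKM, a mean of 80.4 ± 6.63. Its usual type I partner Krt14 had 18.5, 15.3 and 17.8 FPKM, so Krt5 stood above Krt14 in each embryo. The simple-epithelial pair Krt8 and Krt18 had 18.6, 20.3 and 15.2 and 27.4, 33.8 and 30.1 FPKM, and Krt19 had 28, 25.3 and 19.2.

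The ranges of Krt18 and Krt19, of Krt19 and Krt8, and of Krt8 and Krt14 overlapped, and only Krt5 and Krt14 were separated from the keratin ranked next. Lower keratins were Krt7 (6.39, 8.6 and 8.29 FPKM), Krt9 (7.96, 4.84 and 5.77), Krt23 (2.48, 2.84 and 1.56) and Krt17 (1.8, 1.8 and 1.59). Krt15, another basal keratin, was uneven at 9.24, 2.58 and 2.85 FPKM, high in embryo 1. Krt10, a keratin of the first suprabasal layer, passed in embryos 1 and 2 and not in embryo 3 (1.17, 1.64 and 0.466 FPKM), and its type II partner Krt1 stayed at 0.396, 0.303 and 0.262.

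Upstream sequences of the highest keratin of each type are shown, with each CG in capitals, since expressed keratins had fewer than the median expressed gene.
Krt5: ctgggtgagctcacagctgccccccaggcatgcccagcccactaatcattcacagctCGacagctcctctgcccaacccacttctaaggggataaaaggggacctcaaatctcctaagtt
Krt18: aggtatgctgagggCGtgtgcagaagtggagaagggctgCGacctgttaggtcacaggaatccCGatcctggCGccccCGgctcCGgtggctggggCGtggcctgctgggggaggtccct
The Krt5 stretch (chr15:101712906-101713025, minus strand) held 1 CG and that of Krt18 (chr15:102028060-102028179, plus strand) 7. Over whole windows the median was 6 CG in the 7 expressed keratins matched, against 21 in expressed coding genes. TATAAA was in 14.3% of these 7 windows and in 60% of 30 windows of unexpressed keratins and later epidermal genes, against 13.6% of all windows.

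Genes of the outer and later layers split. Periderm, the flat outermost layer of embryonic skin, was represented by 12 of 16 listed genes (75%), beside 48.9% of all coding genes. The basal layer or other simple epithelia also express several of these 12. Cldn6 was highest at 299, 356 and 314 FPKM, Sfn (stratifin), of stratified epithelia, had 36.4, 34.1 and 32.9, and the channel subunit gene Gabrp 18.5, 6.29 and 10.8. Of 17 genes of later epidermal differentiation only Tgm1, a transglutaminase, was expressed, at 5.52, 4.14 and 4.3 FPKM. Lor and Ivl, which encode cornified envelope proteins, had 0.0444, 0 and 0 and 0, 0.0152 and 0.0657 FPKM.

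Of 83 adhesion and basement membrane genes 56 (67.5%) were expressed, beside 48.9% of all coding genes. Cldn6, a tight junction claudin, led by a wide margin in every embryo. Itga6, an integrin subunit that binds laminin at hemidesmosomes, had 91.7, 105 and 90.3 FPKM, E-cadherin (Cdh1) 79.4, 82 and 79 and P-cadherin (Cdh3) 57.9, 66.6 and 59.2. Cdh1 lay above Cdh3 in each embryo, and Cdh2, N-cadherin, was at 9.14, 7.06 and 9.59 FPKM. Agrn, a basement membrane proteoglycan, and Lamc1, a laminin chain, had 67.3, 66.3 and 67.6 and 55, 58.5 and 55.8 FPKM. Junctional proteins F11r (51.5, 59 and 52 FPKM) and Tjp1 (47.1, 49.2 and 46.8), the desmosomal plakoglobin gene Jup (33.1, 34.1 and 31.7) and the integrin genes Itgb1 (47.7, 48.7 and 42.7) and Itga3 (37.9, 45 and 40.3) followed. Cdh11, a cadherin of mesenchymal cells, was lower and uneven at 12.3, 2.07 and 3.66 FPKM.

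**Figure D3:**
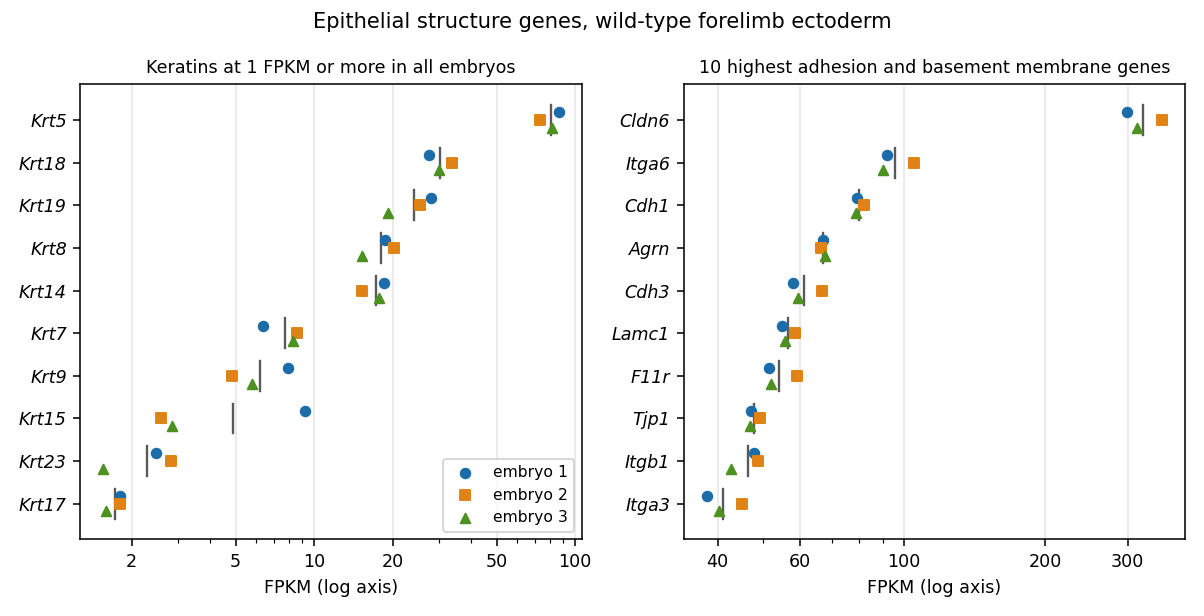
FPKM (log axis) of the 10 expressed keratins and the 10 highest adhesion and basement membrane genes in embryo 1 (circles), embryo 2 (squares) and embryo 3 (triangles), with a grey tick at the mean. Krt5 and Cldn6 lead their panels in every embryo, and Krt15 is the keratin with the largest ratio of highest to lowest embryo, 9.24 against 2.58 FPKM.

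The spread among embryos was small for most genes. The quartiles of the coefficient of variation (CV, the SD as a percentage of the mean) over expressed coding genes were 5.24%, 8.37% and 13.3%. It was wider at low levels, with a median of 12.9% in 3113 genes under a mean of 5 FPKM, 7.29% in 6948 genes at 5 or more and 6.28% in 979 genes at 50 or more. The 5 ectoderm markers had CVs from 5.79% (Epcam) to 16.2% (En1). The median ratio of the highest to the lowest embryo was 1.17.

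In 164 of 10061 genes, 1.63%, the highest embryo was at least 2-fold above the lowest. Embryo 1 was at least 2-fold above both others in 33 genes (0.328%) and below both in 5. The matching counts were 1 above and 20 below for embryo 2, and 9 above and 11 below for embryo 3. On the deposited scale embryo 1 was the highest of the 3 in 46.2% of genes and embryo 3 the lowest in 55.7%, and after median-of-ratios scaling these were 34.8% and 32.4%. Leaving out embryo 1, 2 or 3 lowered the share of 2-fold genes to 0.642%, 0.981% and 0.905%.

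Among expressed coding genes, which reach 1 FPKM in every embryo and so leave out Kdm5d and Xist, the 10 largest ratios at a mean of 5 FPKM or more belonged to Selenom, the globin genes Hbb-y, Hba-x and Hbb-bh1, the mitochondrial gene COX2, the histone gene Hist1h2ai, and Lix1, Mecom, Cdh11 and Asb4. Mecom, a zinc finger factor, had 18.3, 3.02 and 7.36 FPKM, Lix1 10.45, 1.7 and 3.7 and Asb4 35.7, 6.06 and 9.56. These 3 and Cdh11 were highest in embryo 1 and lowest in embryo 2, the order seen in Prrx1 and Tbx5. Hist1h2ai had 15.7, 2.54 and 2.38 FPKM, high in embryo 1, but belongs to a family of near-identical histone genes whose reads may be shared.

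Dropping the requirement on each embryo and asking for a mean of 1 FPKM gave 10395 genes, of which 285 (2.74%) had a 2-fold ratio, and 66 were at least 2-fold higher in embryo 1 than in both others. These included 5 of the 18 Hox genes at that mean. The 4 Y-linked genes on the lists, among them Kdm5d and Ddx3y, entered on the same terms. A gene can reach a mean of 1 FPKM through embryo 1 alone, as Kdm5d did. The counts under this rule, that of the Hox genes included, therefore lean towards genes high in a single embryo.

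Selenoprotein genes were uneven among the embryos. Selenocysteine is inserted at a UGA codon, and genes for such proteins carry a selenocysteine feature in the GENCODE annotation; 24 did, and 20 were expressed. Selenom, a protein of the endoplasmic reticulum, had 3.77, 13.1 and 277 FPKM, a 73.6-fold range. Txnrd3, a thioredoxin reductase, had 51.7, 11.3 and 43.2 FPKM and was lowest in embryo 2, whereas Selenok had 41.4, 109.5 and 38.2, highest in embryo 2, and Selenos 41.2, 41.2 and 106, highest in embryo 3. No common order of embryos ran through them.

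A 2-fold ratio was passed by 11 of the 20 (55%), against 153 of 10041 other expressed genes (1.52%), and their median CV was 37.1% against 8.36%. The group was singled out after its values were seen. FPKM also stood high for these genes against the authors' deposited table's mean per kilobase. In this comparison 13 of 20 (65%) exceeded 4-fold, beside 3.06% of all genes, with a median log2 excess of 2.18 and a lowest of 0.71. The part of the FPKM estimate in their spread was not tested.

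Most mitochondrially encoded mRNAs ranked the embryos alike, 9 of the 12 expressed being lowest in embryo 1 and highest in embryo 3. Among all expressed coding genes embryo 1 was lowest in 20.1% and embryo 3 highest in 14.8%. The summed FPKM of the mitochondrial mRNAs, over 13 genes, was 9836, 13474 and 15102, also lowest in embryo 1 and highest in embryo 3. COX1 had 1809, 2853 and 3172 FPKM, CYTB 1188, 1956 and 2297 and ND5 412, 712 and 893. ATP6 differed little at 9.57, 9.68 and 9.35 FPKM and ND3 was highest in embryo 2 at 9.28, 11.9 and 8.08. Summed FPKM of 83 cytosolic ribosomal protein genes was 30866, 32995 and 30084, highest in embryo 2.

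**Figure D4:**
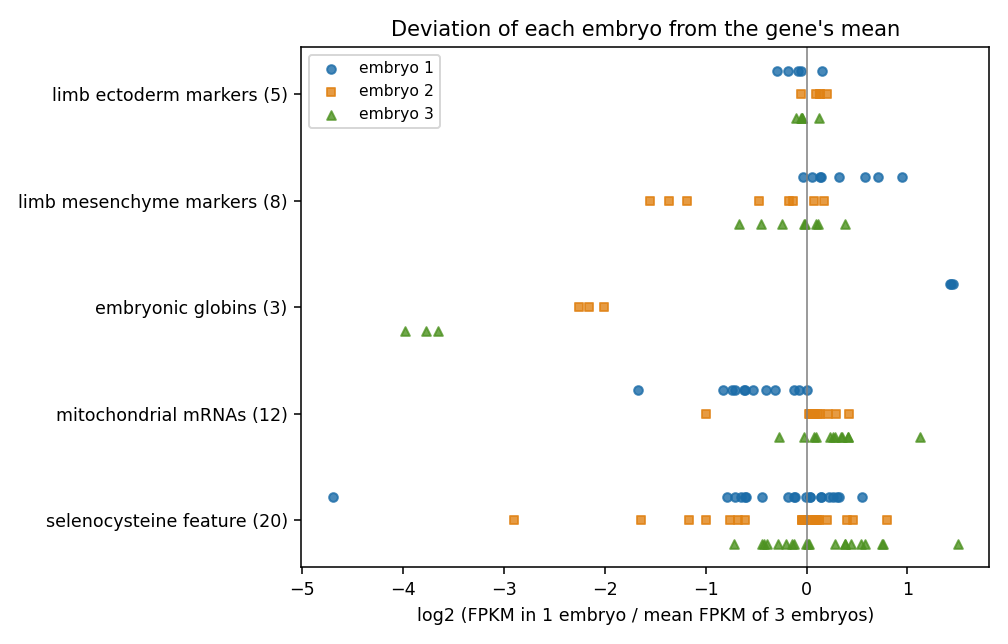
Log2 ratio of the FPKM in 1 embryo to the gene's mean over 3 embryos, for 5 groups with the number of genes in brackets; circles, squares and triangles are embryos 1, 2 and 3. Ectoderm markers stay near 0, globins are high in embryo 1 and lowest in embryo 3, and most mesenchyme markers are lowest in embryo 2.

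Some genes hardly varied. Among expressed coding genes the 10 smallest CVs at a mean of 5 FPKM or more ran from 0.193% in Itch, a ubiquitin ligase, to 0.335% in Asb8. Itch had 21.4, 21.4 and 21.5 FPKM and Bclaf1, a splicing-associated factor, 179, 179.8 and 179. Utp14a, Ube4b, Cep70 and Arnt were also among the 10. With 3 values a gene, such small CVs mark no gene as constant.

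**Figure D5:**
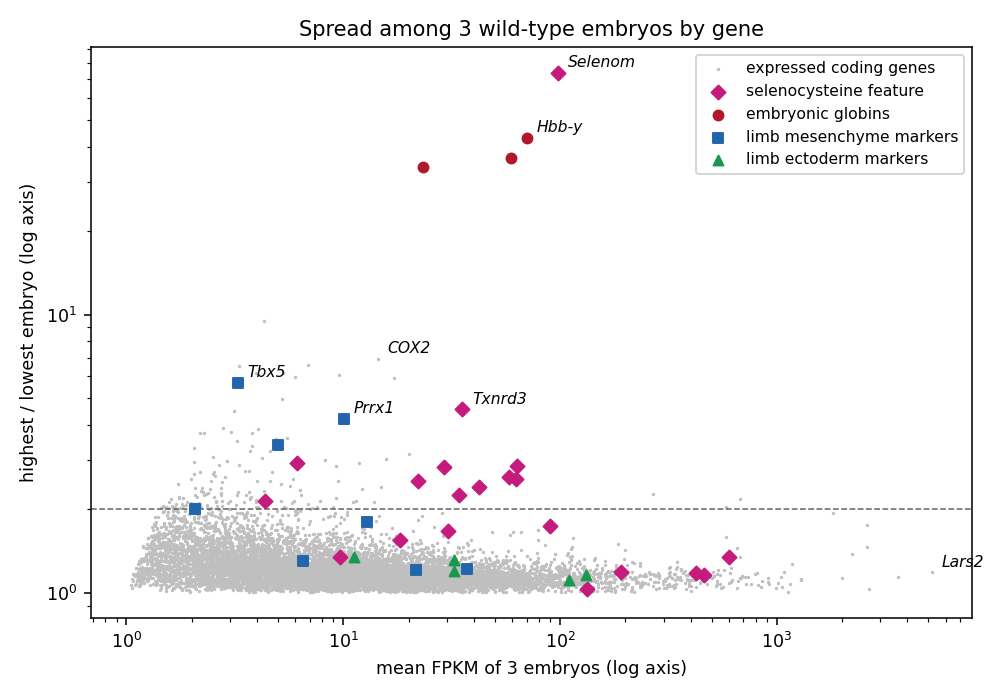
Highest over lowest embryo against mean FPKM of 3 embryos for expressed coding genes, both on log axes, with the dashed line at 2-fold; diamonds are genes with a selenocysteine feature, red circles globins, squares mesenchyme markers and green triangles ectoderm markers. Selenom at 73.6-fold and Hbb-y at 43.1-fold stand far above the cloud, and the ectoderm markers lie within it.

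Several genes lay close to the threshold. Just inside it, the lowest embryo stood at 1.00058 FPKM for Dnm3, 1.0007 for Hsbp1l1 and 1.00131 for Urgcp, and just outside at 0.998792 for Flrt1, 0.998306 for Dusp3 and 0.997825 for Bmpr1b. Coding genes at 1 FPKM or more numbered 10493, 10305 and 10312 in embryos 1, 2 and 3. Of those outside the rule, 331 reached the threshold in exactly 1 embryo and 298 in exactly 2.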

How the data were processed

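RNA-seq values of 3 wild-type embryos were read from the series' table. The FPKM values were deposited per embryo, with no scaling of their own added here; per the labels' protocols the annotation was Ensembl build 87. The submitters' processing notes name FastQC, SAMtools, TopHat2, Cufflinks and DESeq2 and the build GRCm38, with no role or order. The authors' deposited control mean, a signal that the table does not define and that was read as the wild-type mean of normalized counts, was used only to compare ranks. How strand and shared reads were treated was not given in the sources used here.

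Each gene's mean, SD, CV and highest to lowest ratio over 3 embryos were computed in Python 3.11.15 with pandas 2.3.3 and numpy 2.4.6, and no p-value was calculated; the script was tested on simulated data. GENCODE M21 gave types and positions for 49195 genes, and RefSeq the promoters. No source says whether the embryos shared a litter or extraction, and the spread may be partly technical.

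The members and the 52 gene lists were chosen with earlier results of these data known. Named genes are the 5 markers, the 20 highest coding genes, the 10 highest of each class, the 3 highest of each list, the 10 largest ratios and 10 smallest CVs at 5 FPKM or more, and FGF, Wnt and keratin genes passing in only 1 or 2 embryos; all others were chosen after their values were seen. A few genes that the rule selects are not reported here. Alternatives were thresholds of 0.5 and 5 FPKM, a pseudocount, other scalings and leaving out each embryo.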

Additional observations from a re-analysis of the deposited data

How the results depend on the processing

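No paired analysis was possible because a single group is described and no test was made. Of 79 values under alternatives for 12 results, 68 stayed within the spread or within 1.5 times the main value, including all 25 of the 5 markers. The spread used for a marker was the SD of its 3 embryos. Leaving out 1 of 3 embryos cannot move a mean by more than that SD, so those marker values are no test of stability. A threshold of 5 FPKM lowered the genes with a symbol from 10072 to 6626, regulators from 182 to 104, ligands from 76 to 42 and keratins from 10 to 6. The share of 2-fold genes, 1.63%, was 2.70% at 0.5 FPKM, 0.378% at 5 FPKM, 0.706% with a pseudocount of 1, and 2.74% for a mean of 1 FPKM with no minimum per embryo, chosen after seeing the data. Leaving out each embryo gave 0.642% to 0.981%, with fewer values behind each ratio. Depth is known only relative to embryo 1, so no counting interval is given, and values near 1 FPKM are the least precise.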

Other observations

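Of 20 listed imprinted genes, which are expressed from 1 parental copy, 16 (80%) stood at 1 FPKM or more in all embryos. The share of all coding genes with a symbol was 48.9%. After Igf2 came H19, the noncoding RNA next to it, which has no symbol in the deposited table, at 1373, 1419 and 1373 FPKM. Mest had 309.8, 273 and 263 FPKM, Peg3 245, 263 and 258 and Grb10, an adaptor that restrains growth factor receptors, 251, 248 and 230.5. Cdkn1c, a cell cycle inhibitor, had 95.2, 85.2 and 56.6 FPKM, lowest in embryo 3. Igf2r, which clears Igf2, had 24.1, 25.8 and 23.9 FPKM and Igf1r, its signalling receptor, 26.2, 25.6 and 27, both lower than Igf2 in every embryo.

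Of 13 listed genes known as p53 targets 12 (92.3%) were expressed, beside 48.9% of all coding genes. Perp, a desmosomal protein that p63 also controls, had 221, 251 and 218 FPKM, and the cell cycle inhibitor Cdkn1a had 53.4, 68.6 and 76, lowest in embryo 1. Pmaip1, which promotes cell death, was highest in embryo 1 at 6.78, 2.31 and 2.1 FPKM. A further 1143 genes without a symbol reached 1 FPKM in all embryos, among them 213 processed pseudogenes, 183 antisense genes, 158 long intergenic RNAs and 95 protein-coding genes.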
